A study of Caenorhabditis elegans with 2 samples.

Results

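The *Caenorhabditis elegans* protein-coding genes *npr-23*, *cyp-13A2*, *bed-2*, *C33B4.4*, *noca-1* and *sre-45* each held a strong SNPC-4 ChIP-seq peak whose summit had no annotated small RNA gene within 250 bp. They are 6 of 19985 protein-coding genes, and 6 of the 1413 that had such a summit from 500 bp before the gene to its end. The genes were chosen by the deposited signal values of their peaks, so signals and ranks are given as a description and carry no test. They are not the 6 strongest, since 73 other coding genes had a stronger summit of this kind than the weakest of them, *sre-45*.

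The data came from whole L2 larvae, males and females pooled, of strain OP179, with genotype unc-119(ed3) III; wgIs179. The transgene wgIs179 carries eGFP-tagged *snpc-4*, and every worm carried both it and the *unc-119* allele. There were 2 biological replicates in 1 group, no other condition, and a fragment size range of 150 to 350 bp. ChIP-seq on whole animals averages over all their cells, so the cells in which a site was bound cannot be told, and binding of the tagged transgene product was measured rather than of the untagged protein.

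SNPC-4 belongs to SNAPc, the protein complex that activates small nuclear RNA (snRNA) genes. SNAPc binds a proximal sequence element a short way upstream of these genes and recruits RNA polymerase to them. In *C. elegans* its targets include the spliceosomal snRNA genes and the spliced leader (SL) RNA genes, whose product is joined to the front of many messenger RNAs. A protein-coding gene is not a usual target of the complex.

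In *bed-2*, *C33B4.4*, *noca-1* and *sre-45* the DNA near a summit held letters like those upstream of snRNA and SL RNA genes. *cyp-13A2* held them in a gapped form, and *npr-23* had no match. An ungapped match, scored as below, was found at 7.68% of reproducible summits with no small RNA gene within 250 bp, these genes included. The share was 17.1% among other summits at least as strong as the second *sre-45* summit, and 18.9% in introns. With the letters learned from SL RNA genes alone, 2 genes kept a match. A weight matrix of 16 positions was learned from 51 genes annotated as snRNA or SL RNA with a peak on the reproducible list (37 snRNA, 14 SL RNA). All 14 SL RNA genes are named *sls-2*, so no other kind of SL RNA gene is represented. The 37 include *smy-8*, *smy-9* and *smy-11*. Their matches lie at 49 separate places, because *sup-39* and *mir-1831*, and *T27E4.12* and *T27E4.22*, overlap and share 1 match each pair. Separate places with equal scores, such as *sls-2.14* and *sls-2.15* at 29.4, were counted apart. In those genes the best match began a median of 58 bp before the RNA start (quartiles 56.5 and 58). Each line below is 30 bases, read 5′ to 3′ along the direction of the match, with the 16 positions of the match in capitals. For *cyp-13A2* the capitals mark 17 positions, because its match is of a gapped form described further on. The first 2 lines are an snRNA gene and an SL RNA gene near the median score of their class, shown for comparison. The others are the sites in the coding genes. The site at the first *sre-45* summit also lies just upstream of the annotated snoRNA gene *F54F11.6*, on the same strand. It may therefore belong to that small RNA gene, which was not tested. Sequences are from RefSeq assembly WBcel235 (ce11).
C53D6.12 (snRNA), chrIV:9001456-9001485, minus strand: gggcgaaACCCGCAAGGTATCCGcacactg
sls-2.13 (SL RNA), chrIV:5063567-5063596, minus strand: tgacgaaACCCGCAGACTGTCGGtatacac
bed-2, higher-scoring site, chrIII:11463955-11463984, minus strand: ctccacaACCCGTGAGACGTCGGccgcctg
bed-2, lower-scoring site, chrIII:11464016-11464045, plus strand: tggcggaACCCGGGAAGCGTCGGctgctga
C33B4.4, chrII:11376961-11376990, minus strand: gcgcggaACCCGTAAGATGTCGGgtaatga
noca-1, chrV:13163076-13163105, plus strand: tagcaaaACCCGTTAGATGTCGGgccatgc
sre-45, first summit, chrII:13521236-13521265, plus strand: acgcggaACCCGCGAAATGTCCGctgcggc
sre-45, second summit, chrII:13522019-13522048, plus strand: gcgcggaACCCGCAGGATGTCGGcagcggc
cyp-13A2, gapped match, chrII:9787955-9787984, minus strand: tggcggaACCCGAAAAACTGTCGGccgcta
Every capital run opens with ACCCG and closes with TCGG or TCCG. Only sites that matched the matrix or its gapped form are printed, and *npr-23* had none. The shared letters therefore follow in part from how the sites were picked.

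Peak strength is the authors' signal value for a peak, and a rank of 1 is the strongest peak of a list. The reproducible list, made with the irreproducible discovery rate procedure (IDR), held 1864 peaks with signals from 28.0 to 3852 and a median of 43.7. These were the 1864 strongest of 30000 pooled candidates. Over all protein-coding genes, 7.77% (1553 of 19985) had an IDR summit from 500 bp before the gene to its end. All 6 genes had one because they were chosen for it, so nothing is read from that count. Among the 1413 coding genes with a summit clear of small RNA genes, *bed-2* ranked 8, *npr-23* 9, *cyp-13A2* 17, *C33B4.4* 37, *noca-1* 41 and *sre-45* 79. Just above *sre-45*, at a pooled signal of 119.2, lay *btb-14* at 123.6 and *rpb-11* at 120.7. Just below it lay *cct-1* and *mig-5*, which share 1 peak at 118.4.

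The 6 genes together held 8 IDR summits, with a second summit in *noca-1* and in *sre-45*. No source used here says if signal was scaled to depth, so signals are set side by side within a list, and ranks are used across lists. *bed-2*, which encodes a BED-type zinc finger protein, had the strongest peak of the 6, with a signal of 511.3 in the pooled list, 116.0 in replicate 1 and 398.2 in replicate 2. It ranked 55 in all 3 lists. *npr-23*, a member of the neuropeptide receptor family of G protein-coupled receptors, had signals of 425.8 pooled, 125.8 in replicate 1 and 302.9 in replicate 2. Its ranks were 62, 54 and 68, so it stood just above *bed-2* in replicate 1 and below it in the other lists.

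*cyp-13A2*, a cytochrome P450 gene, had signals of 266.1 pooled, 49.5 in replicate 1 and 214.8 in replicate 2, at ranks 84, 94 and 80. *C33B4.4* had signals of 181.1 pooled, 32.3 in replicate 1 and 147.8 in replicate 2, at ranks 118, 141 and 112. The first summit of *noca-1*, a gene needed for microtubule arrays that do not start at centrosomes, had 175.0 pooled, 31.7 in replicate 1 and 143.5 in replicate 2, at ranks 124, 144 and 117. These 3 genes kept the same order in each replicate, and *C33B4.4* and *noca-1* were next to each other in strength throughout.

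*sre-45*, a chemoreceptor-type gene of serpentine receptor class E, had summits 796 bp apart. The first had signals of 133.9 pooled, 29.4 in replicate 1 and 103.6 in replicate 2, at ranks 158, 162 and 161. The second had 119.2, 35.8 and 86.4, at ranks 181, 127 and 196. Their order was therefore reversed in replicate 1. The second *noca-1* summit was weak, with 28.9 pooled, 7.56 in replicate 1 and 20.2 in replicate 2, at ranks 1791, 1751 and 2142, close to the lowest signal of the IDR list.

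**Figure D1:**
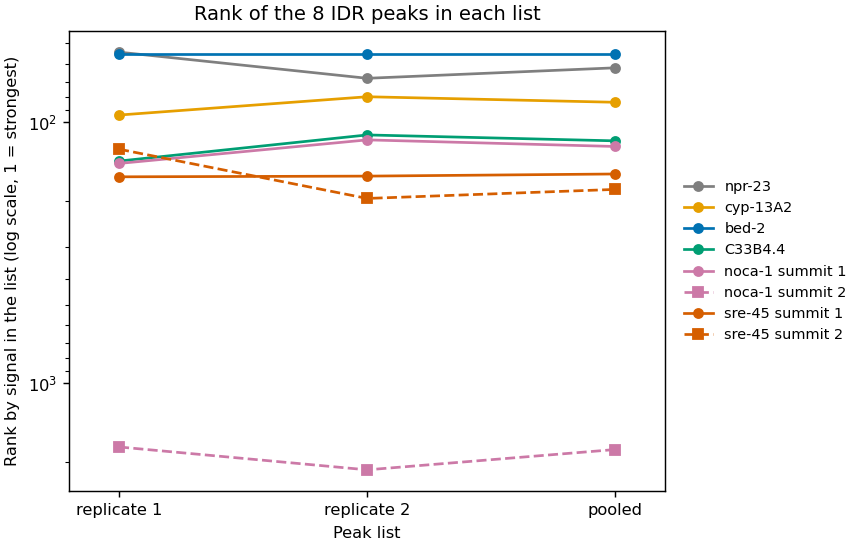
Rank by signal of the 8 IDR peaks of the 6 genes in the replicate 1, replicate 2 and pooled lists, on a log scale with the strongest at the top, with squares and dashed lines for second summits. The strongest pooled peak of each gene lay between rank 54 and rank 162 in every list, and the second *noca-1* summit lay at 1751 to 2142.

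All 6 genes had their strongest peak in both replicate lists, as did 94.5% of all nuclear IDR peaks (1737 of 1839) and each of the 179 nuclear IDR peaks of pooled rank 200 or better. A share that high in the background leaves the count uninformative about these genes. The replicates also fed the pooled list, so they are not independent of the choice. The replicate summits fell within 11 bp of the pooled summit for *npr-23*, *cyp-13A2*, *bed-2*, *C33B4.4*, the first *noca-1* summit and the second *sre-45* summit. The first *sre-45* summit was 39 bp off in replicate 1 and at the pooled base in replicate 2. The 2 replicate summits lay 22 bp apart in *bed-2*, 39 bp at the first *sre-45* summit and 40 bp at the weak second *noca-1* summit. For the other summits they lay 1 to 7 bp apart. For nuclear IDR peaks of pooled rank 200 or better this gap had a median of 8 bp (quartiles 3 and 17). Over all nuclear IDR peaks its median was 23 bp (quartiles 10 and 49). The gaps of *bed-2* and the first *sre-45* summit were thus above the upper quartile of the stronger peaks.

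Of the 6 strongest summits, those of *npr-23* and *cyp-13A2* alone lay ahead of the gene's own 5′ end, and the rest lay within the gene. The *npr-23* summit lay 132 bp before the gene's annotated 5′ end and at the same time inside an intron of *vps-4*, which runs on the opposite strand and starts 4738 bp away. The *cyp-13A2* summit lay 341 bp before its gene. It was 827 bp from the 3′ end of *cyp-13A3*, which is on the same strand and has its 5′ end 5327 bp from the summit. The *bed-2* summit lay at the other end of its gene, in the 3′ UTR, 168 bp past the last coding base and in the last exon of both transcripts, an exon of 630 bp.

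The other 3 genes had their summits inside introns. In *C33B4.4* the summit was in the 7040 bp first intron of the longer transcript, which places it 706 bp before the 5′ end of the shorter one. In *noca-1* the first summit was in a 1037 bp intron, 407 bp from the nearest exon, in 6 of the 9 transcripts. The weak second *noca-1* summit was in a 3168 bp intron, 112 bp before the 5′ end of another of its transcripts. Both *sre-45* summits were in intron 3, of 1599 bp. Counting the *vps-4* intron for *npr-23*, 4 of the 6 strongest summits were intronic. Of the IDR summits with no small RNA gene within 250 bp, 20% (323 of 1615) were. The 6 genes' summits had to lie from 500 bp before a coding gene to its end, and the 1615 did not. The first *sre-45* summit, near a small RNA gene, is not among the 1615. The shares are therefore not alike, and nothing is read from the gap. Of those 1615, 74.7% lay between coding genes, 4.33% in untranslated exons and 0.929% in coding exons.

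**Figure D2:**
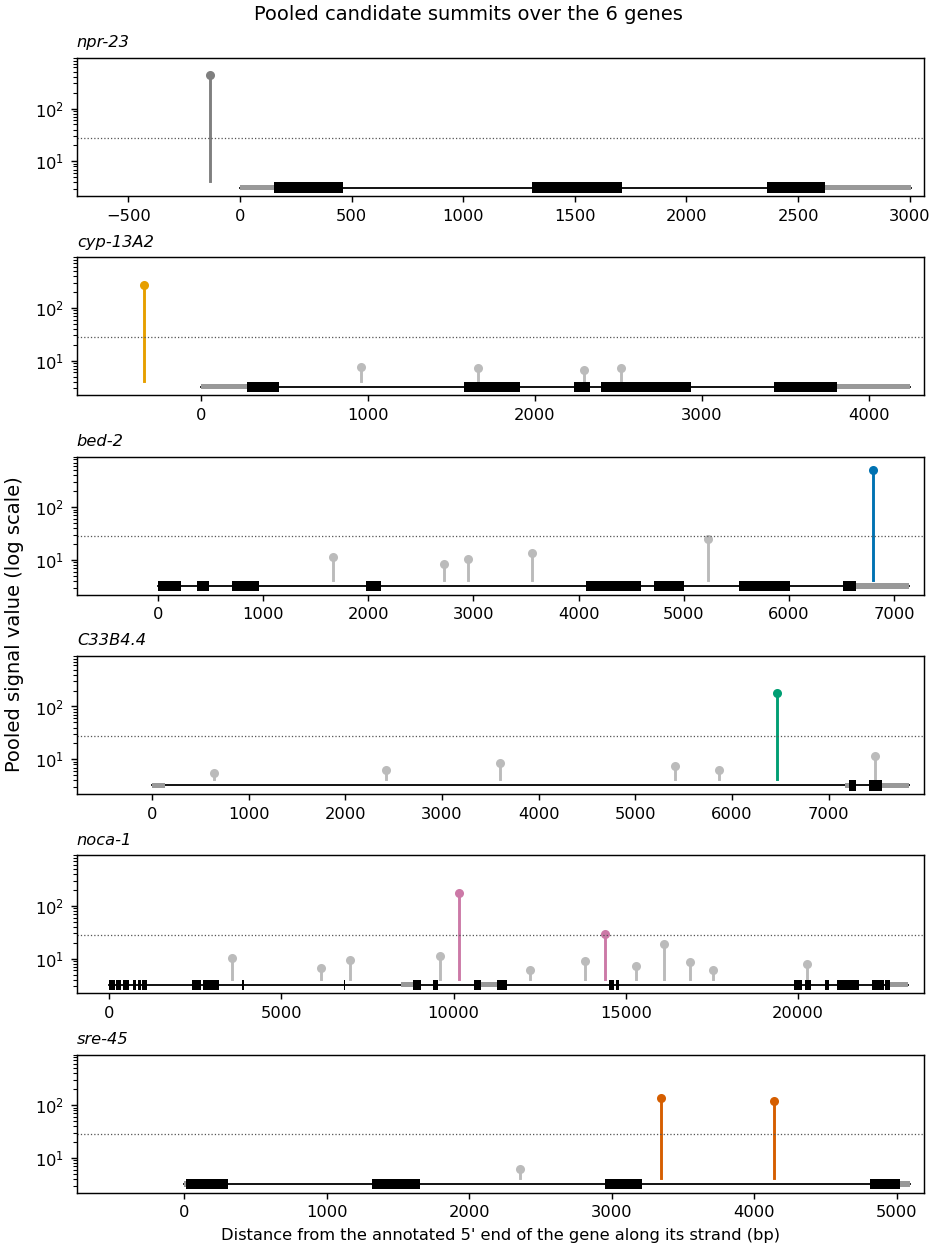
Pooled candidate summits over each gene, with distance from the annotated 5′ end along the strand (bp) on the x axis and pooled signal on a log y axis. Black boxes are coding exons, grey boxes untranslated exons, coloured stems summits in the IDR list, grey stems weaker candidates, and the dotted line is the lowest IDR signal, 28.0. One summit dominates in *npr-23*, *cyp-13A2*, *bed-2*, *C33B4.4* and *noca-1*, and *sre-45* has a pair of similar height.

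The genes also held weaker candidates. From 500 bp before each gene to its end there were 35 pooled candidates in all, of which 27 were below the IDR list. *noca-1*, the longest of the 6 at 23197 bp, held 13 pooled candidates, and *npr-23*, at 3005 bp, held 1. The 27 weaker candidates had signals from 5.46 to 25.1, the highest in *bed-2*. Of them 29.6% were in both replicate lists, beside 21.4% of the 28136 pooled candidates below the IDR list.

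One gene did not meet the selection rule at its strongest summit. The first *sre-45* summit lay 57 bp upstream of the snoRNA gene *F54F11.6* (chrII:13521301-13521471, plus strand), which sits in the same intron and on the same strand. The second *sre-45* summit was 569 bp from *F54F11.6* and is the one that meets the rule. For the other 5 genes the nearest annotated small RNA gene was 9500 bp (*bed-2*), 10742 bp (*C33B4.4*), 13136 bp (*cyp-13A2*), 30976 bp (*npr-23*) and 81743 bp (*noca-1*) from the summit. No other noncoding gene or pseudogene lay within 250 bp of these 5 summits either.

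*bed-2*, *C33B4.4*, *noca-1* and *sre-45*, 4 of the 6 genes, had a match of the snRNA and SL RNA matrix within 100 bp of the summit. Of the 1615 IDR summits with no small RNA gene within 250 bp, 7.68% (124) had one, these genes included. The same 4 genes had a match when each of the 49 places was used once in learning. With the matrix learned from SL RNA genes alone, *bed-2* and *noca-1* lost their match and 2 genes kept one, and *noca-1* also lost it at matrix widths of 12 and 20 positions. A match is a score at or above 17.7, the lower quartile of the learning genes, whose median was 21.4. In simulated sequences, sites left out of the learning reached such a limit less often than sites used in it, so a lower score does not show that no element is present. The matrix was not learned from the 6 genes, but they were chosen for strong peaks, and strong summits matched more often: 17.1% (14 of 82) of the other summits at least as strong as the weakest of these peaks, and 6.94% (106 of 1527) of the weaker ones. Matches were also more frequent in introns, at 18.9% (61 of 323), than between coding genes, at 4.89% (59 of 1207).

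*sre-45* scored 25.8 at its first summit and 25.7 at its second, *C33B4.4* 25.6, *bed-2* 23.8 and *noca-1* 21.2. Between 23 and 78 of the 1615 summits scored higher than these sites. *cyp-13A2* scored 6.06, *npr-23* 2.56 and the second *noca-1* summit -4.59. These 3 fell among the bulk of summits, with 418, 691 and 1469 of the 1615 scoring higher.

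**Figure D3:**
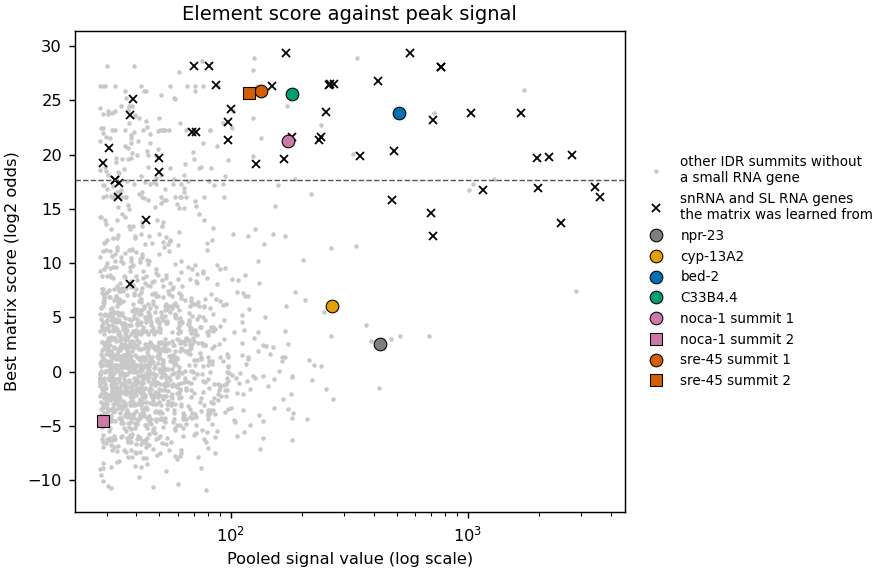
Best matrix score (log2 odds) within 100 bp of the summit against pooled signal on a log scale, for the IDR summits without a small RNA gene (grey), the 51 learning genes (crosses) and the 8 summits of the 6 genes (coloured). The dashed line is the limit of 17.7. *bed-2*, *C33B4.4*, *noca-1* summit 1 and both *sre-45* summits lie among the crosses, and *npr-23* and *cyp-13A2* lie far below the line despite stronger peaks than all of these except *bed-2*.

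In *C33B4.4*, *noca-1* and *sre-45* the summit lay on the match. Its distance from the centre of the match was 0.5 bp in *C33B4.4*, 0.5 bp in *noca-1*, -6.5 bp at the first *sre-45* summit and 6.5 bp at the second. In the learning genes the median was -0.5 bp (quartiles -8.5 and 6). In *bed-2* there were 2 matches, scoring 23.8 and 20.03, on opposite strands and pointing away from each other, with centres 61 bp apart. The *bed-2* summit lay between them, 36.5 bp from one centre and 24.5 bp from the other. Of the 124 background summits with a match, 55.6% lay within 20 bp of its centre, beside 35.2% of the 1491 summits without a match for their best-scoring place.

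**Figure D4:**
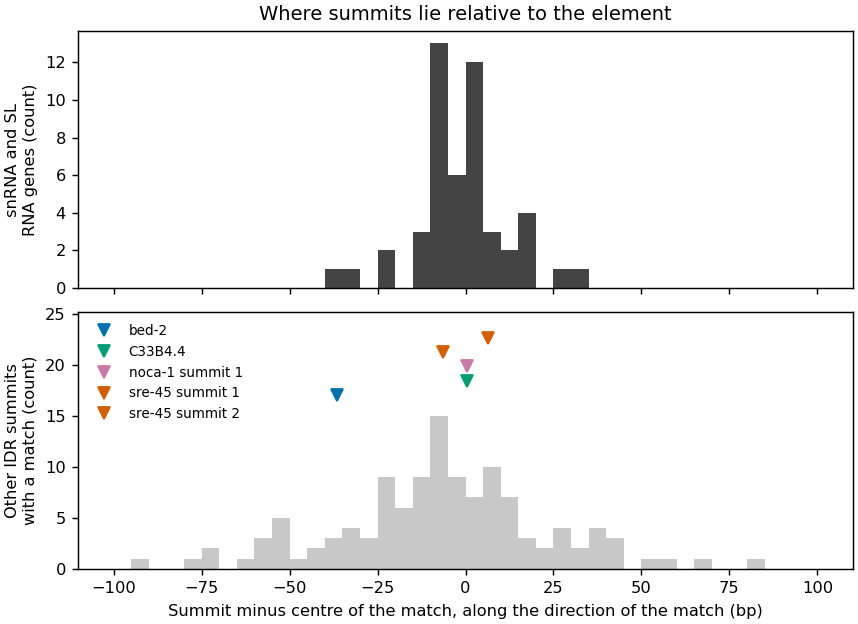
Distance from the centre of the match to the summit (bp), for the snRNA and SL RNA genes (upper panel, 2 genes at 148.5 and 182.5 bp not drawn) and for the other IDR summits with a match (lower panel, grey bars). Triangles mark the matching sites in the coding genes and their height has no meaning. *C33B4.4*, *noca-1* and both *sre-45* summits lie within 6.5 bp of the centre, and the higher-scoring *bed-2* site lies at -36.5 bp.

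The best match pointed in the direction of the gene it lay in for each of the 4 genes. The lower-scoring *bed-2* match, at 20.03, pointed the other way. Among intronic background summits with a match, 29 of 61 (47.5%) pointed the way of the host gene. The 61 include summits of *C33B4.4*, *noca-1* and *sre-45*, and *bed-2*, with its summit in the 3′ UTR, is not of their kind. With 4 genes chosen for strength, the count is given as a description.

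*cyp-13A2* had the letters of both ends of the element but with 1 more base between them. A form of the matrix that allows 3 to 5 bases between its opening and closing blocks was added after the ungapped scores had been seen. With it *cyp-13A2* scored 20.7, above the limit of 15.3 for that form, with 5 bases between the blocks, and its summit lay within 1 bp of the centre. Of the 1615 background summits, 11.8% (191) had a match of this form and 47 scored higher than *cyp-13A2*. *npr-23* reached 11.1 and stayed below the limit. Its sequence is not shown. *npr-23* had the second strongest peak of the 6 and no match under any of the settings tried.

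Only *C33B4.4* had sequence near the summit like an annotated small RNA gene elsewhere, by BLAST at an E value of at most 0.001 within 250 bp of the summit. In the background 5.63% (91 of 1615) of summits had such a similarity. The aligned 56 bp of *C33B4.4* were 85.7% identical to the last 56 bp, bases 102 to 157, of the 157 bp snoRNA gene *Y73B6A.14* on chromosome IV. They began 135 bp from the summit and lay on the strand of the *C33B4.4* element, 143 to 198 bp after its first base. The same bases of *Y73B6A.14* lie 156 to 211 bp after the first base of its own element. *Y73B6A.14* had an IDR peak of its own, with a signal of 40.3 at rank 1080, and an element scoring 18.3. The last 30 bases of the alignment are shown because they hold the snoRNA's 3′ end, with the 6 positions that differ in capitals.
C33B4.4, chrII:11376785-11376814, minus strand: tgcgccagCaTgcCgcctctaCtgCgCttt
Y73B6A.14, chrIV:6664399-6664428, minus strand: tgcgccagTaAgcTgcctctaGtgAgGttt
No small RNA gene is annotated at the *C33B4.4* site, and whether RNA is made from it was not measured.

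Some of these sites resemble each other. The sequences around the first and second *sre-45* summits were 77.5% identical over 102 bp, and *C33B4.4* and the second *sre-45* summit were 80.6% identical over 36 bp. Both alignments include the 16 positions of the match, so part of the likeness is the match itself. The *C33B4.4* summit sequence had 33 other alignments in the genome, the longest 126 bp at 77.8% identity, the first *sre-45* summit had 2, the second had 5 and *cyp-13A2* had 1. *npr-23*, *bed-2* and *noca-1* had 0. None of the 8 had a near-identical copy, taken as at least 90% identity over at least 80% of its length.

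Base composition differed between the sites. GC content within 100 bp of the summit was 56.2% for *npr-23*, 54.7% for *bed-2*, 47.8% for *C33B4.4*, 45.3% and 50.2% for *sre-45*, 37.3% for *cyp-13A2* and 30.8% for *noca-1*, beside 35.4% for the genome.

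Of 108 other genes named npr-, cyp-13A, bed-, sre- or noca-, 3 (2.78%) had an IDR summit, beside 7.77% of all coding genes. Summits were counted from 500 bp before the gene to its end. With either replicate left out, that is, in the other replicate's list at the length of the IDR list, the count was 5. *npr-13*, a neuropeptide receptor family gene, had a summit of signal 48.9 that lay 10 bp from a tRNA gene. *sre-13* had one of 106.6 that lay 15 bp from a tRNA gene. *sre-42* had one of 50.5, with the nearest small RNA gene 12774 bp away. None of the 10 other cyp-13A genes had an IDR summit.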

How the data were processed

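ChIP-seq of eGFP-tagged SNPC-4 was deposited as peak lists on ce11 for replicate 1 (21391 peaks), replicate 2 (30000), the pooled reads (30000) and the IDR list (1864). Peak calling used a control alignment, per the deposited description files. Software for alignment and peak calling is not given in the sources used here. Signal values, as deposited, are the authors' peak-caller strength, with scaling to depth unstated. The deposited −log10 q-value was not used in any result. The summit offset, the other deposited column, gave each summit as start plus offset. No read counts were used, so depth is unknown and no counting interval is given.

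Gene positions were from Ensembl release 115 (WBcel235). Small RNA genes were snRNA, SL RNA, tRNA, rRNA, snoRNA, miRNA and piRNA genes. The matrix was learned by expectation maximisation from the 100 bp before each RNA start. The 6 genes, families and lists were chosen with earlier results of these data known. Named genes were the 6, their nearest genes, family members with an IDR summit, and the 2 coding genes just stronger and the 2 just weaker than the weakest. The gapped form and the use of each learning place once were added after the data were seen. Since members were chosen on signal and there is 1 group, no test was run. Learning, scanning and gene assignment were tested on simulated data. There, sites not used in learning reached the score limit less often than a quartile limit would give. The limit was kept as planned and is strict for new sites. The pass criterion of the simulated check was changed after this was seen, to separation from random sequences. Python 3.11.15, numpy 2.4.6, pandas 2.3.3, matplotlib 3.10.9 and BLAST 2.17.0 were used.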

Additional observations from a re-analysis of the deposited data

How the results depend on the processing

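Of 33 alternatives over 7 counts, 28 kept the count within 1.5 times its value and 5 moved it. Some of these counts were largely set by the choice of genes, so their stability is uninformative. They are the genes with an IDR summit, with no small RNA gene near it, and with a peak in both replicate lists. Genes with an IDR summit fell from 6 to 4 with 0 bp before the gene, which is still counted as kept. The matrix learned from SL RNA genes alone left 2 genes with a match, *C33B4.4* and *sre-45*. The count of genes with similarity to a small RNA gene went from 1 to 3 with 500 bp each side of the summit and to 4 at an E value of at most 0.1. With 500 bp, *npr-23* gained *cel-mir-4805* and *sre-45* gained *cel-mir-5545*. At 0.1, alignments of at most 26 bp were added for *bed-2*, *noca-1* and *sre-45*. Family genes with a summit numbered 5 with either replicate left out, beside 3. The causes were not tested. *noca-1* also lost its match at matrix widths of 12 and 20 bases, and *cyp-13A2* gained one at 12. The count of intronic summits was 3 on the genes' own transcripts. No paired analysis was possible because the series has 1 group. Depth was unknown, so how far it limits the weaker candidates cannot be said.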
